A study of Mus musculus with 86 samples.

Results

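RNA bind-n-seq (RBNS) was used here to ask which RNA oligos gain or lose binding to purified TDP-43 when the protein is raised 10 times, from 50 nM to 500 nM. The libraries were chosen by their labelled protein concentration, 2 at 500 nM and 2 at 50 nM, and were read against the single Input library, which is the RNA pool before binding. These are 5 of the 86 samples of the series. Of 11537 oligos listed, 10720 had at least 10 reads in Input and were tested.

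TDP-43 is a nuclear RNA-binding protein with a pair of RNA recognition motifs, which bind repeats of the dinucleotide GU. It regulates splicing, stability and transport of its target RNAs, and its loss from the nucleus and aggregation in the cytoplasm mark amyotrophic lateral sclerosis. In RBNS a purified protein is incubated with a pool of RNAs, and the RNAs that stay bound are sequenced and compared with the pool.

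The pool holds 260-base oligos that tile 16 mouse 3′ UTRs and their flanks in steps of 6 bases, so neighbouring oligos share 254 bases and are not independent. Intact oligos fall into those with at least one motif, and those without. The motifs are GUGUG, then UGUGU, and also GUAUG, counted with overlaps on the oligo's own strand. Each oligo with a motif has a mutated companion, in which each base of a motif is replaced by its complement, so that GUGUG becomes CACAC. Per the study's methods, SBP-tagged full-length recombinant TDP-43 was held on streptavidin beads and each concentration was run with 2 independent protein batches, while the labels list the RBNS samples under the CAD mouse neuronal line with the genotype TetOff TDP-43. All binding took place outside cells. R is the share of a library's reads on an oligo divided by that oligo's share in Input, with 0.5 added to counts. Shares within a library add up to a fixed total, so a higher R for one oligo lowers others, and a change is relative to the pool. Since the same Input stands under both concentrations, it drops out of their comparison.

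The bound libraries held 9646262 and 5943408 reads at 500 nM and 4408387 and 8152692 reads at 50 nM, and Input held 6028366. The tested oligos had a median of 401 Input reads. Across the 10720 oligos, which share the pool and the Input library, log2 R had a Pearson correlation of 0.933 between the 500 nM libraries, 0.924 between the 50 nM libraries and 0.573 to 0.793 between the concentrations. The single library without protein, at 0 nM, correlated at 0.571 and 0.5 with the 50 nM libraries and at 0.280 and 0.249 with the 500 nM libraries.

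The following 30-base windows show the motifs in oligos described below, as DNA letters in the sense direction, read from the GENCODE transcripts of GRCm38. Capitals mark the motif bases and, in the mutated companion, the bases that replaced them. The first pair of windows is from a Lrrc47 region that gained R with its motifs intact and lost it with them mutated, at chr4:154020206-154020235 on the plus strand in the 3′ UTR.
Lrrc47 oligo 40 intact: GTGTGctgtaggtgtcTGTGTGgGTGTGgG
Lrrc47 oligo 40 mutated: CACACctgtaggtgtcACACACgCACACgC
The next are from a Wasf3 oligo that gained R with and without its motif, at chr5:146471702-146471731 on the plus strand in the 3′ UTR.
Wasf3 oligo 213 intact: gaaagattcagatccggggtgacatTGTGT
Wasf3 oligo 213 mutated: gaaagattcagatccggggtgacatACACA
The next are from a Cacna1b region that lost R in both forms, at chr2:24606673-24606702 on the minus strand, in coding sequence before the stop codon.
Cacna1b oligo 22 intact: TGTGTcctccctcacttcccaatcccaccc
Cacna1b oligo 22 mutated: ACACAcctccctcacttcccaatcccaccc
The last are from a long GU repeat of Spock2 with a high R at both concentrations, at chr10:60131707-60131736 on the plus strand in the 3′ UTR.
Spock2 oligo 34 intact: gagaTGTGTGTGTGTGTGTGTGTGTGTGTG
Spock2 oligo 34 mutated: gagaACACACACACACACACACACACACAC

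Raising TDP-43 moved oligos in both directions. In edgeR's quasi-likelihood test at an FDR of 0.05, 2099 oligos were higher at 500 nM, 19.6% of those tested, and 2118 were lower, 19.8%. Without replicate 2 at 500 nM the number higher was 1365, and without replicate 1 at 50 nM the number lower was 1321. Oligos with a motif were called higher more often than lower, at 27.5% against 14.9% of 4183. Their mutated companions went the other way, with 15.1% higher and 25.7% lower of 4055. Intact oligos without a motif were at 13.5% higher and 18.3% lower of 2482. These shares moved with single libraries. Without replicate 1 at 500 nM the class without a motif turned round, at 16.9% higher and 13.9% lower, and without replicate 2 at 500 nM it was at 7.17% and 16.2%. Without replicate 1 at 50 nM the share lower was 8.70% with a motif, and the share higher was 9.77% of the mutated companions. Oligos that share most of their bases are counted separately in these shares.

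For oligos with a motif, the median R was 0.784 and 0.903 at 500 nM and 0.731 and 0.648 at 50 nM, so the concentrations did not overlap. For mutated companions it was 0.628 and 0.668 against 0.722 and 0.635, and for intact oligos without a motif 0.425 and 0.508 against 0.495 and 0.401. In both of these classes the concentrations overlapped. The difference of the medians of log2 R was 0.29 with a motif, -0.06 for mutated companions and 0.06 without a motif. Leaving out one library gave 0.19 (without replicate 2 at 500 nM) to 0.39 (without replicate 1 at 500 nM) with a motif, -0.16 to 0.03 for mutated companions and -0.09 to 0.21 without a motif, so the sign changed in the latter classes. The median of the fitted log2 changes without a motif was -0.08, opposite in sign to the difference of the medians. With 2 libraries against 2, an exact permutation test over libraries cannot go below p = 0.333, and class medians were not tested otherwise.

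**Figure D1:**
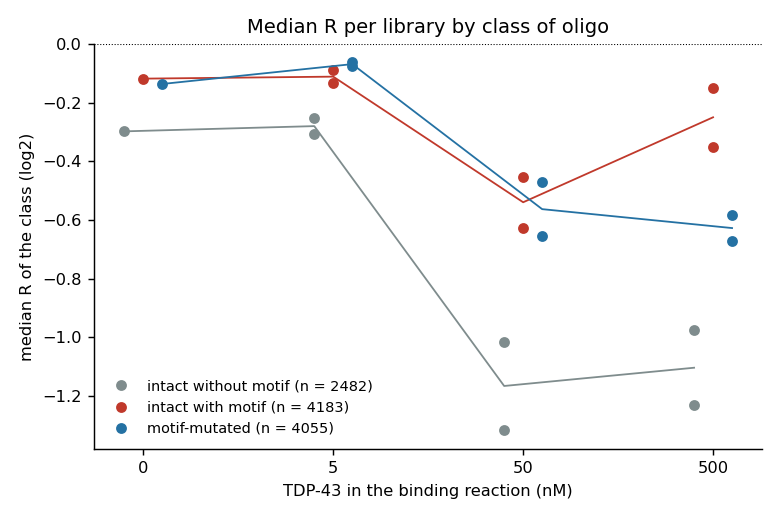
Median R of the 3 classes of oligo on a log2 scale against the TDP-43 concentration, with a point for each library at 0, 5, 50 and 500 nM and a line through the means. At 500 nM the median R with a motif is 0.784 and 0.903, above 0.731 and 0.648 at 50 nM.

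The median R was highest in oligos with 8 or more motifs and did not rise evenly up to that number. At 50 nM the median R was 0.495 and 0.401 without a motif, 0.463 and 0.374 with 2 motifs and 0.404 and 0.407 with 6. Oligos with 8 or more motifs had a median R of 5.32 and 4.20 at 500 nM and of 2.09 and 2.99 at 50 nM, with no overlap. Of these 664 oligos, 34.3% were called higher and 4.22% lower. Of 523 companions whose intact partner had 8 or more motifs, 5.54% were higher and 35.9% lower, with a median R of 1.25 and 1.08 at 500 nM and 1.54 and 1.78 at 50 nM. Among 248 oligos with 4 motifs, 44.4% were higher, and among 43 with 6 motifs, 55.8%. With 1 motif, 25.8% were higher and 23.7% lower of 1607, close to balance.

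Length of the longest unbroken motif stretch separated the oligos differently. Of the 540 oligos with a stretch of 7 or 8 bases 33.1% were higher, and of the 257 with a stretch of 9 to 11 bases 32.3%. Stretches of 16 to 20 bases had a median R of 5.12 and 3.80 at 500 nM and of 3.29 and 4.73 at 50 nM, which overlap. Only 4.76% of these 63 oligos were higher and 3.17% lower. Stretches of 21 bases or more, in 196 oligos, were at 6.62 and 5.01 against 3.98 and 5.44, which overlap too, with 20.9% higher. The R of the oligos with the longest repeats was thus high at 50 nM already.

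**Figure D2:**
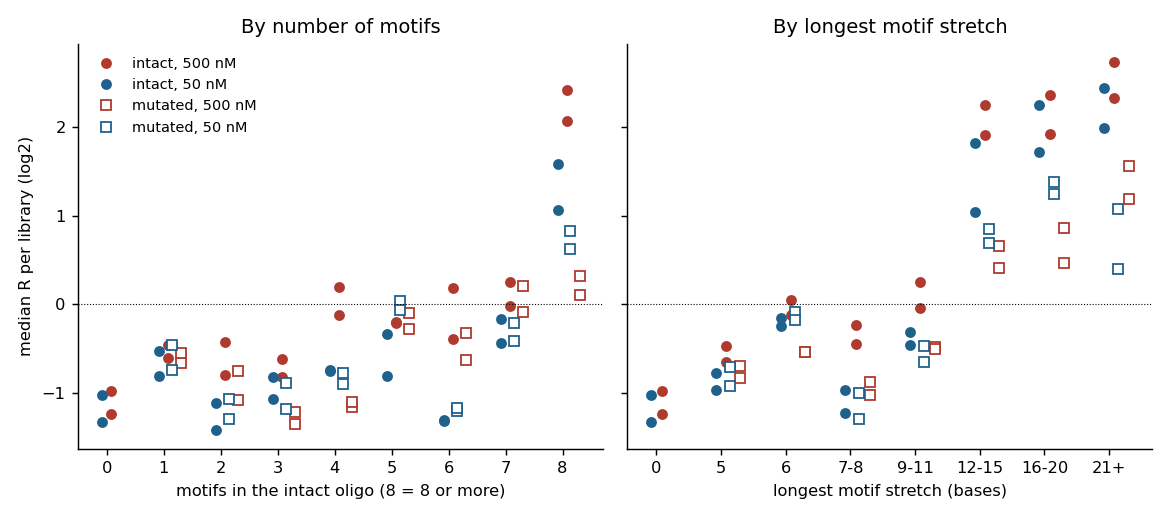
Median R on a log2 scale against the number of motifs and the longest motif stretch in bases, with a point for each library at 500 nM and 50 nM, filled for intact oligos and open for mutated companions. At 8 or more motifs the 500 nM libraries are at 5.32 and 4.20 and the 50 nM libraries at 2.09 and 2.99.

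The 16 UTRs differed in size and direction. Lrrc47 encodes a leucine-rich repeat protein. Its 174 oligos with a motif had a median R of 4.48 and 3.93 at 500 nM and of 1.62 and 1.69 at 50 nM. Calls in this class went both ways, with 42.5% higher and 29.9% lower, and the median of the fitted log2 changes was 0.60. Over all 263 intact oligos of Lrrc47 the median R was 0.741 and 0.858 against 1.22 and 0.973. Of these oligos 37.3% were higher and 33.1% lower. The median of their fitted log2 changes was 0.54, opposite in sign to the difference of the medians. The mutated companions of Lrrc47 were at 0.780 and 0.678 against 1.77 and 1.74, and 77.0% of them were lower. For oligos with a motif and for mutated companions, the median R of the concentrations did not overlap, in opposite directions.

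Kank2, an adaptor of the actin cytoskeleton, had 45.2% of its 155 oligos with a motif higher, with a median R of 1.26 and 1.59 at 500 nM and 0.566 and 0.611 at 50 nM. Of its 154 mutated companions 31.2% were higher too. Wasf3, an activator of actin polymerization, had 40.7% of 263 oligos with a motif and 39.8% of 264 mutated companions higher, and the difference between these classes was not tested. Lars2, the mitochondrial leucyl-tRNA synthetase, had 44 of its 85 oligos with a motif higher, 51.8%, and 0 lower, against 15.3% higher and 12.9% lower among its mutated companions.

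More oligos with a motif were also higher than lower in the following UTRs. Cacna1b had 32.3% of 421 oligos with a motif higher and 9.26% lower, and 11.4% and 18.9% of its 370 mutated companions. Kcnj12 had 32.4% of 306 higher and 7.84% lower, and 17.1% and 13.6% of 286 companions. Synj2bp, at a median R of 0.343 and 0.669 against 0.270 and 0.220, had 27.3% of 388 higher and 2.84% lower. Of its 385 mutated companions 17.7% were higher and 2.86% lower. Tub had 31.9% of 480 higher and 18.1% lower, and its 217 oligos without a motif were at 33.6% and 29.5%. Ksr2 had 25.8% of 718 higher and 14.9% lower.

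In the remaining UTRs calls were mostly lower, or their direction differed between classes. Fam160b2 had 15.7% of its 185 oligos with a motif higher and 27.6% lower, and 49.4% of its 168 companions lower. Ssc5d, which encodes a scavenger receptor protein, had 22.2% of 54 with a motif higher and 24.1% lower, with a median R of 1.73 and 1.57 at 500 nM and 1.53 and 1.39 at 50 nM, and 40.7% of its companions lower. Of the mutated companions of Fam219a, 52.9% were lower and 1.92% higher, and its oligos with a motif were at 20.2% higher and 29.8% lower. Spock2, which encodes a proteoglycan, had 56.0% of its 175 oligos without a motif lower, with a median R of 0.444 and 0.441 at 500 nM and 1.09 and 0.699 at 50 nM. Of its 326 oligos with a motif, 18.1% were higher and 14.7% lower, and of its 305 mutated companions 12.8% and 23.6%. The median of the fitted log2 changes was 0.06 with a motif, while the difference of the median log2 R was -0.11. Diras1, a GTPase of the Ras family, had 6.12% of 278 intact oligos higher and 22.7% lower. Its 232 oligos with a motif had a median R of 2.27 and 1.79 against 1.85 and 2.09, which overlap. Of its 239 mutated companions 8.79% were higher and 45.2% lower. Sos2, a guanine nucleotide exchange factor for Ras, had a very low R in its 98 oligos with a motif, 0.0306 and 0.0767 at 500 nM and 0.178 and 0.109 at 50 nM. Its 149 oligos without a motif were at 0.342 and 0.483 against 0.325 and 0.217, with 17.4% higher and 9.4% lower. Soga3 had 0 of 64 intact oligos higher and 1 lower.

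**Figure D3:**
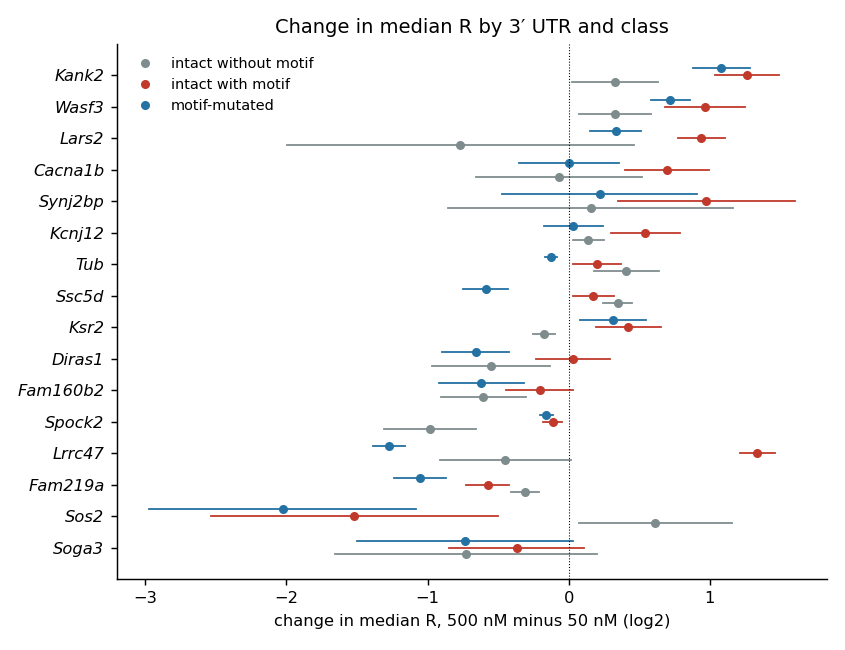
Change in median log2 R from 50 nM to 500 nM for each UTR and class, with a line from the lowest to the highest difference between a library at 500 nM and a library at 50 nM. Lrrc47 lies at 1.34 with motifs and at -1.27 for mutated companions, while Kank2 is at 1.27 and 1.08.

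Called oligos lay in runs along the UTRs. A run was counted where at least 6 oligos were called in one direction, with successive called oligos at most 2 steps apart. There were 62 runs of higher oligos, holding 80.4% of 1486 calls on intact oligos, and 45 runs of lower oligos, holding 78.6% of 1077. Because neighbours share 254 bases, the oligos of a run are not independent. Runs without a single motif numbered 9 among the higher and 11 among the lower.

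In Lrrc47, oligos 24 to 56 formed a run of 32 higher oligos at chr4:154019915-154020366 on the plus strand, which begins 38 bases past the stop codon. Their median R was 6.03 and 4.75 at 500 nM and 2.06 and 2.40 at 50 nM, while 33 of the 33 mutated companions were lower. Without replicate 1 at 500 nM, 17 of the 32 kept the call. A second run, oligos 72 to 99 at chr4:154020203-154020624, held 28 higher oligos at 4.70 and 4.21 against 0.763 and 0.864, and of its 28 mutated companions 2 were higher and 7 lower. Further along, oligos 153 to 237 formed the longest run, with 81 lower oligos at chr4:154020689-154021452, at 0.536 and 0.481 against 1.35 and 1.10. There, 47 of 47 mutated companions were lower as well, and without replicate 2 at 500 nM 51 of the 81 kept the call. Runs in both directions were found in 15 of the 16 UTRs, Lrrc47 among them.

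The longest run of higher oligos was in Ksr2, a scaffold of the Ras pathway, where 61 oligos from 1055 to 1117 rose at chr5:117771881-117772512 on the plus strand. Their median R was 1.60 and 1.84 at 500 nM and 0.425 and 0.471 at 50 nM, and 37 of 43 mutated companions rose too. Wasf3 oligos 59 to 100, at chr5:146470626-146471131 on the plus strand, formed a run of 42, at 2.88 and 3.31 against 0.488 and 0.510. Of its 42 mutated companions 41 rose, and 41 of the 42 intact oligos or more kept the call without any one library. In Kank2, 18 oligos from 47 to 64 rose at chr9:21768367-21768728 on the minus strand, at 1.21 and 1.74 against 0.194 and 0.193, and 14 of 14 mutated companions rose. In each of these 3 runs most or all of the mutated companions rose with the intact oligos.

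Tub, which gives its name to the tubby proteins, held runs of 59 oligos from 448 to 508 at chr7:109032806-109033425 and 57 from 229 to 286 at chr7:109031492-109032093, on the plus strand. The first was at 1.63 and 2.25 at 500 nM and 0.426 and 0.460 at 50 nM, and 26 of 61 mutated companions rose. The second was at 1.33 and 2.09 against 0.430 and 0.388, and its median number of motifs was 0. Runs without any motif were also found in Synj2bp, which encodes a mitochondrial outer membrane protein, and in Sos2. The 17 Synj2bp oligos from 438 to 454, at chr12:81499801-81500156 on the minus strand, were at 0.874 and 1.88 against 0.182 and 0.123, and 11 kept the call without replicate 2 at 50 nM. The 11 Sos2 oligos from 97 to 107, at chr12:69584552-69584871 on the minus strand, were at 1.91 and 2.14 against 0.518 and 0.615.

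Runs of lower oligos began at the first oligo in Cacna1b, Ksr2, Tub, Fam160b2, Kank2 and Ssc5d, and a run of higher oligos did so in Kcnj12. Cacna1b, the pore subunit of N-type calcium channels, had 43 lower oligos from 1 to 43 at chr2:24606417-24606928 on the minus strand, of which the first holds 260 bases of coding sequence. Their median R was 0.771 and 0.580 at 500 nM and 2.72 and 2.12 at 50 nM, and 38 of 38 mutated companions were lower. Spock2 oligos 154 to 203, at chr10:60132300-60132853 on the plus strand and without a motif, had 50 lower, at 0.250 and 0.235 against 1.17 and 0.464. The 50 nM libraries differ from each other there, and without replicate 1 at 50 nM 29 of the 50 kept the call. In Sos2, 13 oligos from 227 to 244 were lower, at a median R of 0.0212 and 0.0417 against 0.188 and 0.114. Of these, 0 kept the call without replicate 1 at 50 nM and 1 without replicate 2, which leaves 1 library at 50 nM, 3 without replicate 1 at 500 nM and 12 without replicate 2.

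**Figure D4:**
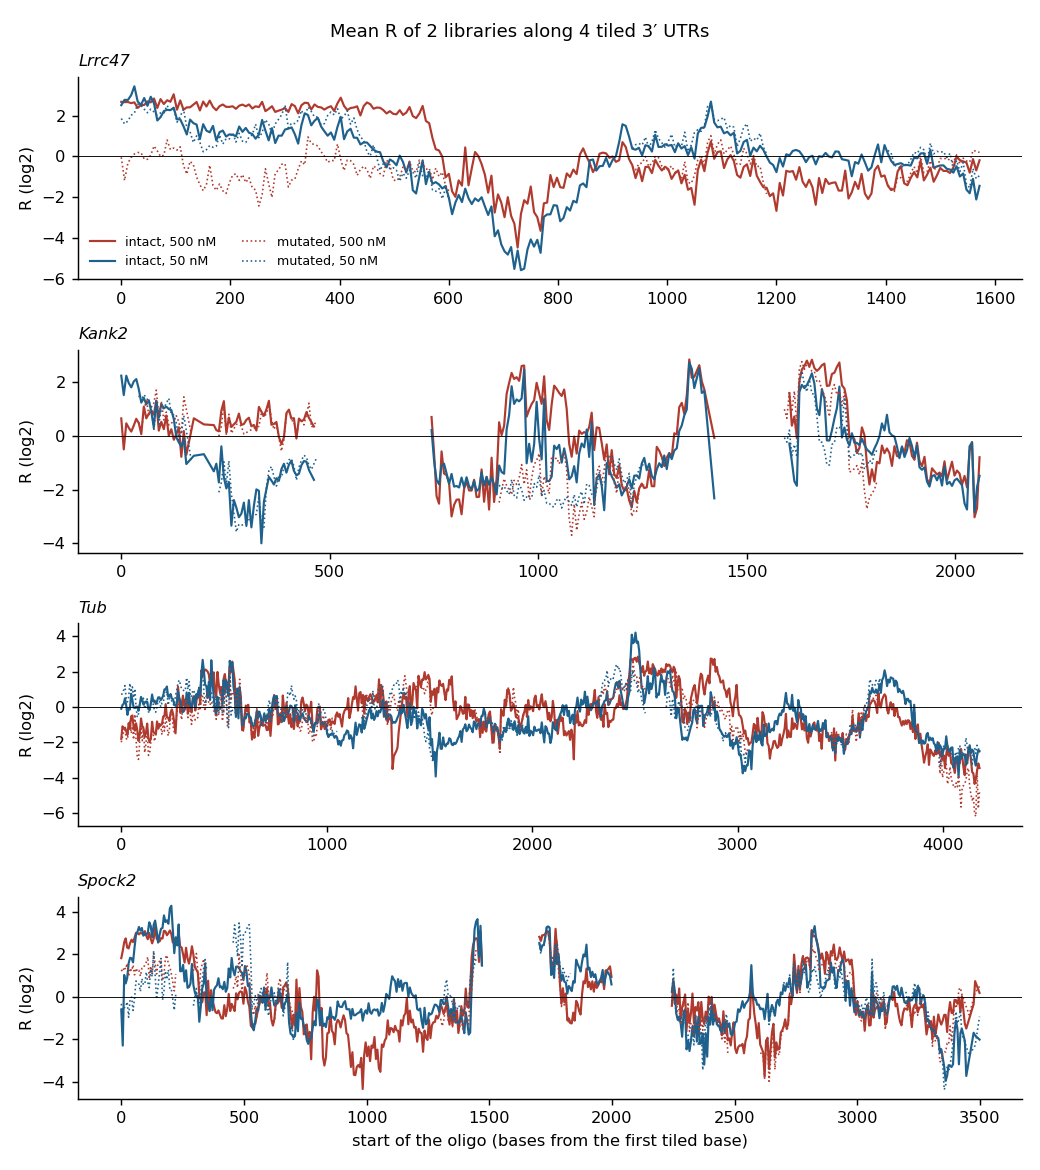
Mean log2 R of the 2 libraries at each concentration along Lrrc47, Kank2, Tub and Spock2, against the start of the oligo in bases from the first tiled base, with solid lines for intact oligos and dotted lines for mutated companions. The Lrrc47 profile at 500 nM lies above that at 50 nM near its start and below it further along.

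Base composition moved with the change. Across 5990 intact oligos with a known sequence, which share libraries and overlap, the Spearman correlation of the change with the C content was -0.445 and with the G content 0.187. Of the 985 oligos with 15 to 20% C, 40.2% were higher and 2.13% lower, while of the 944 with 30 to 35% C, 2.12% were higher and 48.4% lower. The GC content correlated with log2 R at 0.727 and 0.659 at 50 nM, at 0.459 and 0.236 at 500 nM and at 0.544 at 0 nM. The log2 R at 0 nM correlated at -0.424 with the change. The median C content was 20.8% in intact oligos called higher and 30.4% in those called lower. The part of composition and of RNA retained without protein in these changes was not tested.

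Named oligos follow a rule, the largest rise and the largest fall of each UTR and the 5 largest of all, among called intact oligos whose libraries do not overlap. The most extreme of these rest on few reads. Of the 5 largest rises, Ksr2 oligo 674 had 12 and 40 reads at 500 nM and 0 and 0 at 50 nM, with 100 Input reads, and the other 4 also had 0 reads in both 50 nM libraries, so no fold is given. The 5 largest falls are all in Sos2, for example oligo 209 with 0 and 1 reads at 500 nM and 25 and 46 at 50 nM. Therefore oligos with at least 200 Input reads were also ranked, a limit chosen after the data were seen.

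Among the well-covered oligos, Wasf3 oligo 213 had 1780 and 1275 reads at 500 nM and 53 and 89 at 50 nM. Its R was 2.74 and 3.18 against 0.180 and 0.163, a log2 change of 4.12 (SE 0.288) with an adjusted p = 6.55e-06 in edgeR. Its mutated companion, whose sequence is shown above, was at 2.46 and 2.85 against 0.122 and 0.142, a log2 change of 4.33. Both forms were higher at 500 nM in both libraries. Kcnj12 oligo 90, from the gene of an inward-rectifier potassium channel, was at 2.49 and 2.62 against 0.236 and 0.306, and its companion at 2.53 and 2.64 against 0.239 and 0.281. Kank2 oligo 50 was at 1.21 and 1.53 against 0.201 and 0.159, and its companion at 0.848 and 1.29 against 0.0934 and 0.115.

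Lrrc47 oligo 91, with 7 motifs, rose as an intact oligo. Its R was 3.47 and 3.87 at 500 nM and 0.293 and 0.273 at 50 nM, a log2 change of 3.71 (SE 0.312) with an adjusted p = 8.05e-06 in edgeR. The mutated companion was at 0.566 and 0.608 against 0.554 and 0.411, a log2 change of 0.29 that did not pass, with an adjusted p = 0.452. Lars2 oligo 58 was at 3.07 and 3.38 against 0.435 and 0.642, and its companion at 2.04 and 2.20 against 0.509 and 0.533. Ssc5d oligo 54 was at 4.04 and 3.40 against 0.725 and 1.02, and its companion at 1.71 and 1.77 against 0.569 and 0.858. Oligos without a motif also appeared, such as Fam219a oligo 53 at 3.35 and 3.72 against 0.485 and 0.758. On the falling side, Cacna1b oligo 31 was at 0.173 and 0.183 against 1.70 and 0.874, with its companion at 0.399 and 0.346 against 3.14 and 1.75. Spock2 oligo 165, without a motif, was at 0.0534 and 0.0458 against 0.963 and 0.218, with an adjusted p = 0.000482 in edgeR.

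The effect of mutating the motifs, taken as the ratio of intact to mutated R, differed between the concentrations. Replacing each G of a motif by C also raises the C content of the companion. The part of this change in composition in the mutation effect was not tested. Over 3996 pairs of an intact oligo and its companion, the median ratio of intact to mutated R was 1.2 and 1.23 at 500 nM, 0.948 and 0.956 at 50 nM and 1.01 at 0 nM. The intact form had the higher R in 62.9% and 66.4% of pairs at 500 nM and in 43.7% and 45.6% at 50 nM. In limma, with FDR 0.05, the log2 of this ratio was higher at 500 nM in 778 pairs, 19.5%, and lower in 92, 2.30%. Pairs are called larger or smaller by this signed change, so a ratio that rose from below 1 also counts as larger. A block on the replicate number, which is not shown to pair libraries, gave 293 larger and 19 smaller. The calls without a block also depend on having both 500 nM libraries. Without either of them 0 pairs passed in either direction, although 707 and 651 had an unadjusted p under 0.05 for a larger effect and 88 and 81 for a smaller one. Without a 50 nM library, 878 and 1124 pairs were larger and 140 and 272 smaller.

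By UTR, Lrrc47 had a median ratio of 4.47 and 4.22 at 500 nM and of 0.890 and 0.920 at 50 nM, with 97 of 174 pairs larger and 0 smaller. Lars2 had 37.6% of 85 pairs larger and Ssc5d 37.0% of 54. The ratios did not rise evenly with the number of motifs. With 1 motif they were 1.04 and 1.07 against 0.954 and 0.927, with 4 motifs 2.29 and 2.27 against 0.999 and 1.06, with 5 motifs 0.952 and 1.08 against 0.782 and 0.716, and with 8 or more 3.26 and 2.93 against 1.22 and 1.61. The pairs with a stretch of 21 bases or more were at 1.88 and 1.75 against 2.23 and 2.83, with 30.3% of 66 pairs smaller and 3.03% larger. Their ratio was 1.34 in the single library at 0 nM, and their mutated companions had a median of 30 Input reads.

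Of the named pairs, Lrrc47 oligo 42, whose window is that of oligo 40, had the largest gain. The intact oligo was at 6.54 and 4.61 at 500 nM and 1.53 and 2.18 at 50 nM, and the mutated one at 0.391 and 0.260 against 3.30 and 2.71. This log2 change of 4.82 (SE 0.293) had an adjusted p = 0.0041 in limma. In this pair the mutation replaced 98 bases, and Input held 85 reads of the intact form and 1705 of the mutated one. The other 4 named gains included a form with 8 reads or fewer in at least 1 library. Among the losses, Spock2 oligo 34, the repeat shown above, was at 10.6 and 7.10 at 500 nM and 14.1 and 22.7 at 50 nM. Its companion was at 2.98 and 2.38 against 0.714 and 2.28, a log2 change of -2.10 (SE 0.363) with an adjusted p = 0.0256 in limma, and had 33 Input reads. Thus the R of the intact repeat was above that of its companion in all 4 libraries.

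**Figure D5:**
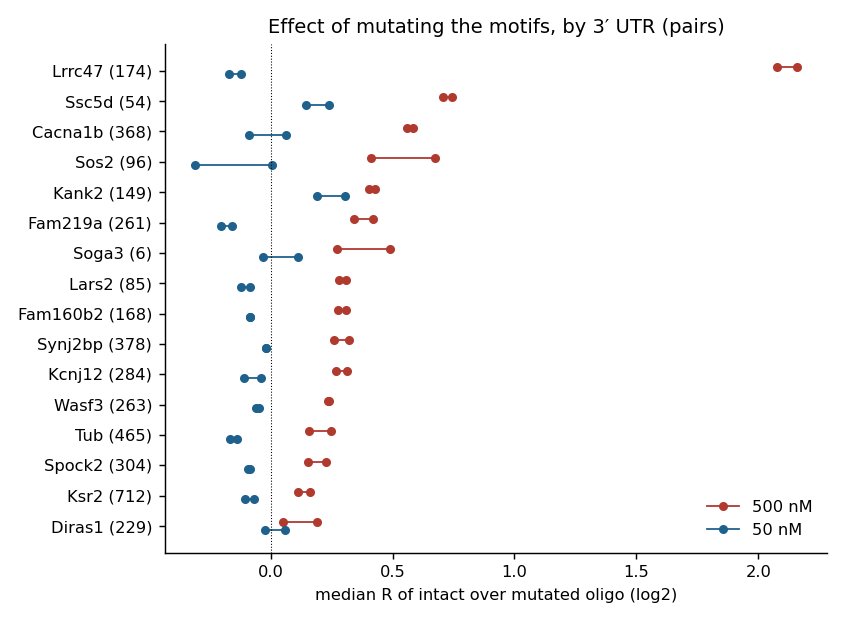
Median ratio of intact to mutated R for each 3′ UTR on a log2 scale, with a point for each library at 500 nM and 50 nM and the number of pairs beside the name. Lrrc47 is at a ratio of 4.47 and 4.22 at 500 nM and of 0.890 and 0.920 at 50 nM.

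Of 3996 pairs, 521 had both forms higher, and 513 had the intact form higher with its companion not called. In 72 the intact form was higher and its companion lower, and in 90 the companion alone was higher. Neither form was called in 1747 pairs. Over all tested oligos, 27.5% of those with a motif and 15.1% of mutated companions were higher, and 14.9% and 25.7% lower. Among the lower, 536 pairs had both forms lower, 433 the companion alone and 84 the intact form alone.

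The same oligos were placed in reporters in CAD cells, in a massively parallel reporter assay (MPRA), where doxycycline induces the loss of TDP-43. Its 16 libraries, 4 cultures for soma and neurites with and without doxycycline, did not enter the RBNS calls. The localization ratio (LR) is the log2 of neurite over soma, and its change was tested in edgeR as an interaction. LR rose with doxycycline in 649 of 11918 oligos, 5.45%, and fell in 44, 0.369%. The 348 intact oligos with a higher LR had a median R of 6.18 and 5.06 at 500 nM and of 3.40 and 3.52 at 50 nM. Of them 98 were higher in RBNS, 28.2%, and 3 lower, beside 22.3% higher and 16.2% lower over all intact oligos. Of these 348 oligos 85.6% held a motif, and 27.5% of all oligos with a motif were higher. Lrrc47 gave 83 of the 348, with 53 higher in RBNS, and without Lrrc47 45 of 265 were higher, 17.0%, below the share over all intact oligos. The 348 had a median of 75.5 Input reads, against 423 in intact oligos not called in LR, and the part of depth was not tested. Among those with a motif outside Lrrc47, median R was higher at 500 nM in Cacna1b, Diras1, Fam160b2, Fam219a, Kank2, Ksr2 and Wasf3. In Kcnj12 and Spock2 it was lower.

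The 25 intact oligos whose LR fell had 18 higher in RBNS, with a median R of 1.32 and 2.65 at 500 nM and 0.267 and 0.180 at 50 nM. Tub oligo 256, which has no motif, is among the 18. Its R was 0.550 and 1.82 at 500 nM and 0.0794 and 0.0542 at 50 nM, a log2 change of 4.19 with an adjusted p = 8.47e-05 in edgeR. With neurite and soma libraries matched by replicate number, its LR was 1.87, 2.13, 2.12 and 2.17 without doxycycline. It was 1.35, 1.28, 1.15 and 1.48 with doxycycline, and the groups do not overlap. The main fit did not use this matching. In edgeR the interaction was -0.76 (SE 0.0870), and its adjusted p was 1.89e-07. Diras1 oligo 294, at 6.25 and 4.33 against 1.10 and 1.57 in RBNS, had an LR change of 0.29 with an adjusted p = 0.0445 in edgeR.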

How the data were processed

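For RBNS the values deposited by the authors are read counts, 1 for each oligo, and for the MPRA they are counts of reads and of unique UMIs, after cutadapt trimming and bowtie2 alignment to the oligos (versions not given in the sources used here). MPRA libraries held 7923270 to 12208997 UMIs. The members and lists were chosen with earlier results of these data known. The RBNS test used edgeR 4.0.16 (glmQLFit, glmQLFTest; R 4.3.3), with total oligo reads as library size, normalization factors of 1, at least 10 Input reads, and Benjamini-Hochberg adjustment over all oligos at an FDR of 0.05. The ratio of intact to mutated share was tested with limma 3.58.1 (eBayes with a trend), and the MPRA interaction with edgeR on UMI counts (TMM, filterByExpr). DESeq2 1.42.0 was an alternative. Tables and figures used python 3.11.15, numpy 2.4.6, pandas 2.3.3 and matplotlib 3.10.9. The RBNS p-values rest on the spread between 2 libraries per concentration. The variance of each oligo or pair is drawn toward a trend over all of them, which overlap. Intervals of counting are not given.

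Oligo sequences were rebuilt by tiling GENCODE vM21 transcripts, for 10356 of 11537 oligos (89.8%). The mutated letters in 3888 of 3942 companions matched. Soga3 and many tiles past the transcript ends had no sequence. For each UTR the called intact oligo with the largest rise and with the largest fall, the 5 largest of each over all UTRs, their mutated companions, and the 5 pairs with the largest gain and loss of the mutation effect were named, where the libraries of the concentrations do not overlap (for pairs, 1 per run of overlapping oligos). The ranking at 200 Input reads or more, and the runs, were added after the data were seen.

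The main fits did not take replicate numbers to pair libraries. Each printed LR value sets the neurite and soma libraries of the same number against each other. Each fit was tested on simulated data in which 200 features changed. The RBNS fit recovered 173 of 200 log2 changes of 2 (86.5%) among 10720 oligos, with 7 false calls. The MPRA fit recovered 198 of 200 log2 changes of 1 (99%) among 11918, with 12. In the simulations of RBNS and of the mutation effect, the changed features had a mean of at least 100 reads, for pairs in both forms. Recovery at fewer reads was not tested there. For the mutation effect, the outcome depended on the simulated spread. With the spread of pairs of at least 100 reads (dispersion 0.0142), 200 of 200 log2 changes of 2 among 3996 pairs were recovered in each of 20 draws, with 1 to 13 false calls. This setting was chosen after others had been tried, namely an assumed dispersion and then oligos drawn independently at the dispersion of the pool (0.0809), which recovered 0 in its first draw. Over 20 draws, the setting at the dispersion of the pool recovered 0 to 138, with a median of 62.5, and 0 in 2 draws.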

Additional observations from a re-analysis of the deposited data

Results flagged for a closer look

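The LR of 6 of 98 groups of 4 cultures held one culture far from the others, by Dixon's test at its 95% critical value, which chance gives in about 1 in 20 groups. All are MPRA values of oligos named for RBNS, with neurite and soma libraries matched by replicate number, which the main fit did not use. Without doxycycline, Cacna1b oligo 232 had one culture at -0.196 with the others from -0.038 to -0.0109, Lars2 oligo 58 one at -0.0262 with the others from 0.177 to 0.196, Sos2 oligo 104 one at -0.253 with the others from 0.0801 to 0.126, and Tub oligo 256 one at 1.87 with the others from 2.12 to 2.17. With doxycycline, Spock2 oligo 561 had one culture at -0.187 with the others from 0.0344 to 0.0718, and Synj2bp oligo 447 one at -0.0406 with the others from 0.131 to 0.14. The RBNS groups hold 2 libraries and were not tested in this way.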

How the results depend on the processing

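No call on a named oligo or pair reversed under the alternatives run. At an FDR of 0.01, 1398 oligos were higher. Leaving out one RBNS library at a time gave 1365 to 2184 higher and 1321 to 1940 lower oligos. For the mutation effect this gave 0 to 1124 larger and 0 to 272 smaller pairs, with 0 without either 500 nM library, and 140 and 272 smaller pairs without a 50 nM library. Whether a replicate number marks a protein batch is not stated in the sources used here. Same-numbered RBNS libraries had deviations that correlated at -0.219, and MPRA ones at -0.0667 to 0.177, so the main fits did not take the numbers as pairs. For the MPRA a replicate block gave 657 oligos with a higher LR and 49 with a lower one, beside 649 and 44. For RBNS a replicate block gave 1900 higher and 1925 lower oligos and 293 larger and 19 smaller pairs. The crossed pairing, chosen after seeing the data, gave 2677 and 2622 oligos and 930 and 132 pairs. TMM gave 2087 higher and 2314 lower, DESeq2 2308 and 2078, and centring on oligos without a motif 2296 and 1938. Counting mutated stretches in place of overlapping motifs moved the medians for 3 to 7 motifs, for example to 1.24 at 4 and to 0.04 at 6. Of 566 alternative values for named oligos, 64 lost the call and none reversed, and of 83 for named pairs 33 lost it. The causes were not tested. Depth limits the extremes, which have few or 0 reads at one concentration.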

Other observations

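An R above 2 was found in 1746 and 1759 oligos at 500 nM (16.3% and 16.4%), in 1433 and 1585 at 50 nM (13.4% and 14.8%), in 213 and 741 at 5 nM (1.99% and 6.91%) and in 163 in the single library at 0 nM (1.52%). An R above 4 was found in 812 and 680 oligos at 500 nM, 417 and 564 at 50 nM, 21 and 137 at 5 nM and 19 at 0 nM. The 5 nM libraries differ from each other more than those at 50 nM or 500 nM, with a Pearson correlation of log2 R of 0.607 over 10720 oligos, and hold 4475295 and 1806779 reads.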
